A study of Macaca nemestrina with 58 samples.

Results

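This section covers 4 enzymes that make or break down signalling lipids: HSD17B2, HSD17B8, CYP26B1 and CYP7B1. They were chosen with earlier results of these data known, and taken as the probe sets whose single gene symbol in the array annotation is one of these names. Their calls and ranks beside all probe sets therefore do not test whether such enzymes change more often than other genes. Each gene had 1 probe set, so 4 of the array's 52865 probe sets and 4 of 14133 genes with a symbol are described, and all 4 were kept by a filter on dim probe sets that kept 31624. Expression was measured in pinch biopsies of the vaginal wall of 15 pig-tailed macaques (Macaca nemestrina) on arrays designed for the rhesus macaque. The treated groups were 9 animals given DMPA (depot medroxyprogesterone acetate, an injected progestin) and 6 animals in an arm labelled LNG, which the design text calls a combined oral contraceptive. After DMPA, 8 biopsies were labelled 1D4 and 9 were labelled 2D2, at labelled doses of 0.5, 1.5 and 2.5 with no unit. After LNG, 6 biopsies were labelled 5th and 6 were labelled 7th, from 3 animals labelled High and 3 labelled Low. The titles of 5 of these 12 LNG arrays, most of them at the 7th time, also carry (A-), which is not explained. Treated biopsies were set against each animal's own untreated baseline, 28 biopsies in all. Of these, 10 were early and 5 late follicular, and 4 were early and 9 late luteal. Baseline was sampled 2 times in 13 animals and once in 2, BB521 (late luteal) and BB537 (late follicular). The phases behind each animal's baseline therefore differ, and changes per animal carry that difference. No animal was followed untreated, so treatment cannot be told apart from elapsed time or from earlier biopsies. Ages are not analysed here.

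The 4 enzymes act at points where a lipid signal is switched off or changed in kind. HSD17B2 oxidises estradiol to the weaker estrogen estrone and testosterone to androstenedione, and in the human endometrium it is known as a gene induced by progesterone. HSD17B8 is a dehydrogenase that can also oxidise estradiol and that, together with CBR4, forms a reductase of mitochondrial fatty acid synthesis. CYP26B1 is a cytochrome P450 that hydroxylates retinoic acid and so ends its action in a tissue, while retinoic acid is known to restrain keratinisation of squamous epithelia, the vaginal lining among them. CYP7B1 is the cytochrome P450 that 7α-hydroxylates oxysterols, the side-chain hydroxylated forms of cholesterol, and steroids such as DHEA.

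Values are log2 intensities, so a difference of 1 is a doubling. They cannot be compared between genes, because probe sets differ in brightness. A gene is said to have risen or fallen where limma, fitted over all 31624 kept probe sets with the animal as a block, gave an adjusted p under 0.05. Errors after fitted differences are standard errors. HSD17B2 and CYP26B1 are dim here, with means over all samples of 5.67 and 5.99, close above the 5.53 at which the filter was set. HSD17B8 had a mean of 10.45 and CYP7B1 of 7.75. In the single pair of arrays from the same animal and phase, the duplicate minus its partner was -1.94 for HSD17B2 (5.33 and 7.27), 1.03 for CYP7B1 (7.77 and 6.74), -0.22 for HSD17B8 and -0.11 for CYP26B1. For HSD17B2 that gap is larger in size than its DMPA 2D2 difference from baseline (-1.73), and for CYP7B1 larger than its luteal difference (0.77).

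The makeup and RNA quality of the biopsies moved with treatment, and their part in the members' values was not tested beyond the fits that include them. A score over 17 of 20 listed squamous epithelium genes ranged from 7.26 to 12.38 at DMPA 2D2, against 9.36 to 13.12 at baseline, and was lower in 8 of 9 animals. Scores of 11 of 13 columnar epithelium genes ranged from 8.13 to 9.58 at 2D2, against 7.43 to 9.05 at baseline, higher in 9 of 9 animals. Of these 11 genes 7 rose and 2 fell at 2D2, where 17.2% of all named genes rose and 14.1% fell. At 1D4 the squamous score changed by -2.79 ± 2.14 from each animal's own baseline (SD, n = 8), lower in 7 of 8 animals, and the columnar score by 0.70 ± 0.26, higher in 8 of 8. Gene scores of smooth muscle (6 of 9 listed genes) ranged from 5.61 to 11.25 at 2D2 and 5.78 to 11.91 at 1D4, against 5.63 to 10.21 at baseline. For fibroblasts (9 of 11) they ranged from 8.27 to 12.44 at 2D2 and 8.87 to 12.79 at 1D4, against 7.78 to 12.19 at baseline. Per animal, the stromal scores at 1D4 changed by 0.99 ± 1.16 for fibroblasts (higher in 7 of 8 animals), 1.70 ± 2.46 for smooth muscle (6 of 8) and 0.69 ± 0.59 for endothelium (7 of 8). At 2D2 these scores were higher in 4, 3 and 4 of 9 animals. Scores of leukocyte (8 of 13 listed) and basal keratinocyte genes (3 of 8) were higher at 2D2 in 8 and 6 of 9 animals. For the GAPDH control, the 3' end minus the 5' end, a gap that grows as RNA degrades, averaged 2.43 ± 0.70 at 2D2 (SD, n = 9) and 1.66 ± 0.31 at baseline (SD, n = 28), and was higher in 8 of 9 animals. In bulk biopsies, fewer cells of a type and less RNA per cell cannot be told apart.

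**Figure D1:**
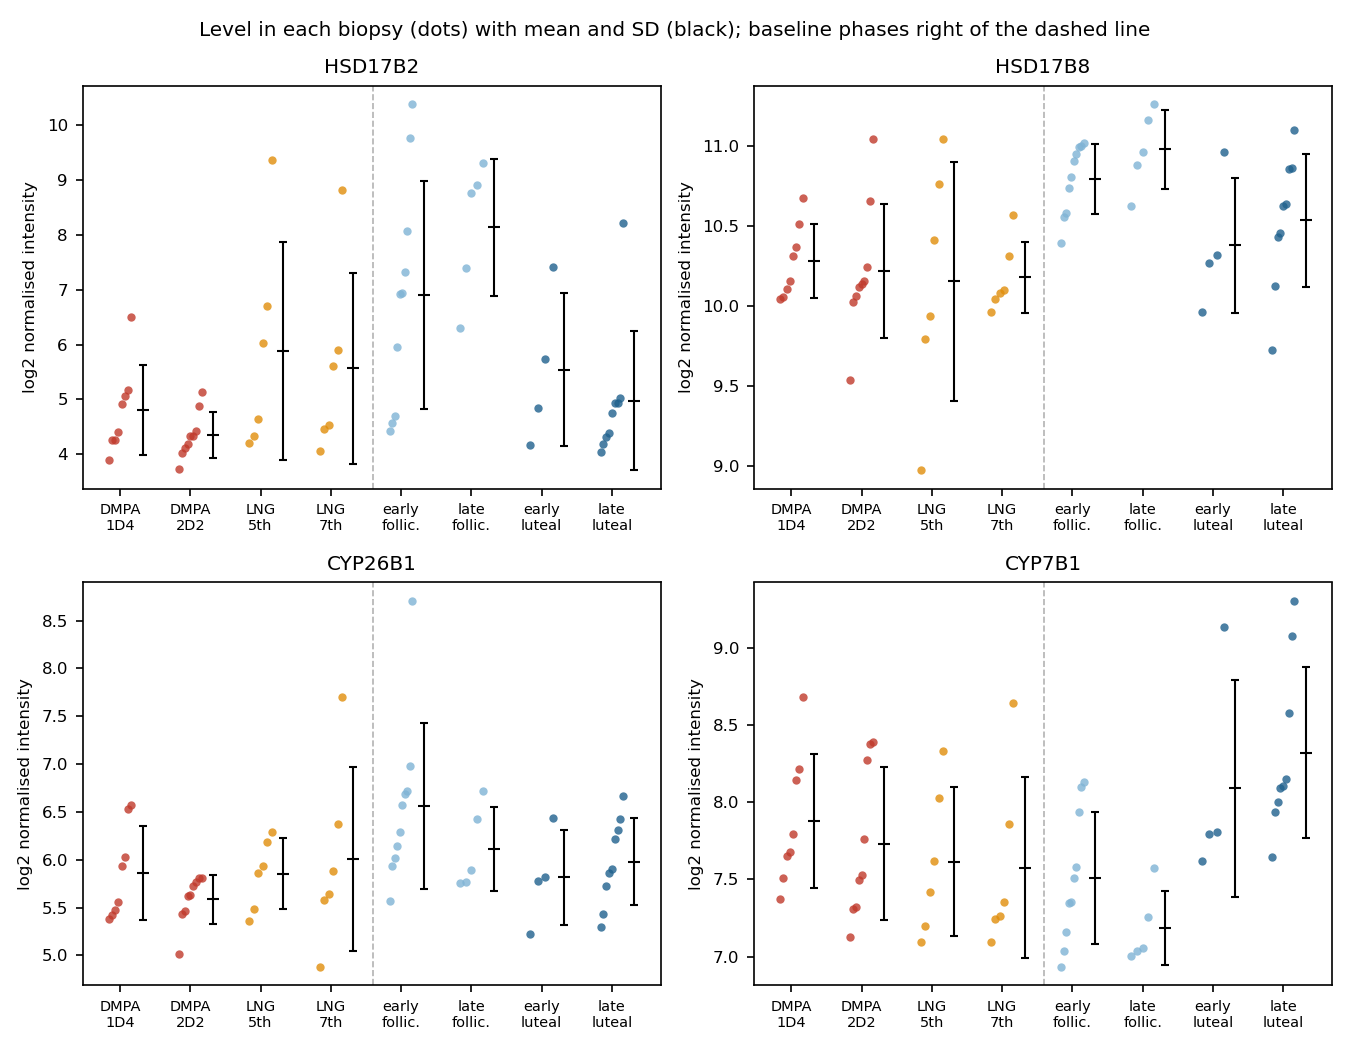
Log2 normalised intensity of the 4 enzymes in each biopsy (dots), by treated time (left of the dashed line) and by cycle phase of the untreated baseline (right), with the mean and SD in black. All 9 HSD17B2 values at DMPA 2D2 lie at or under 5.13, while the late follicular values lie at or above 6.30, and CYP7B1 is highest in the late luteal biopsies. That 6.30 averages a pair of arrays at 5.33 and 7.27, and the share of all probe sets that separate so was not counted.

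HSD17B2, which inactivates estradiol, was lower after DMPA and in the luteal phases. The 10 early follicular values had a low of 4.43, a median of 6.92 and a high of 10.38, the widest range of the 4 phases for this gene. The late follicular values were 6.30, 7.40, 8.76, 8.92 and 9.30. The early luteal values were 4.18, 4.85, 5.74 and 7.42. The late luteal values ran from 4.04 to 8.21 with a median of 4.75, and 8 of the 9 were under 5.53. The remaining one, 8.21 in animal BB770, was followed by 5.03. The ordering of the group means was late follicular (8.13 ± 1.25, SD, n = 5), early follicular (6.90 ± 2.08, n = 10), LNG 5th (5.88 ± 1.98, n = 6), LNG 7th (5.57 ± 1.75, n = 6), early luteal (5.55 ± 1.40, n = 4), late luteal (4.98 ± 1.27, n = 9), DMPA 1D4 (4.81 ± 0.82, n = 8) and DMPA 2D2 (4.35 ± 0.42, n = 9). No neighbours in this order differed by more than the larger of their SDs.

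Across the untreated cycle, HSD17B2 fell by 2.19 ± 0.55 in the luteal relative to the follicular phases, or 4.56-fold (adjusted p = 0.0365). Over all probe sets 1.71% were called in this comparison, and 2 of the 4 enzymes were: HSD17B2 lower and CYP7B1 higher. In the late luteal phase alone, against the early follicular phase, HSD17B2 fell by 2.35 ± 0.63 (adjusted p = 0.0167), in a comparison that called 13% of all probe sets and the same 2 enzymes. In 6 animals both of these phases were sampled, and HSD17B2 was lower in the late luteal biopsy of 6 of 6, with differences of -5.35 to -0.66 (mean -3.09 ± 1.80, SD; exact two-sided sign-flip p = 0.03125, the smallest that 6 animals allow). The spread of those falls, like that of the early follicular values, is wide. The luteal call for HSD17B2 was lost in 8 of the 15 fits that leave out 1 animal (BB173, BB269, BB4800, BB537, BB967, BB981, PHQ1 and PPi2), with adjusted p between 0.0203 and 0.117 over all 15, and the difference itself stayed between -2.58 and -1.92. For HSD17B2 the late luteal against early follicular call was lost without BB967 (adjusted p = 0.0712) or PPi2 (0.0557), with the animal left out of the model (-1.93, adjusted p = 0.145), and with the GAPDH (-2.26, 0.0911), squamous (-2.38, 0.0862) or stroma covariate (-1.81, 0.0731). Stromal scores moved with these phases: smooth muscle averaged 7.97 ± 1.66 in the late luteal phase (SD, n = 9) and 6.39 ± 0.49 in the early follicular phase (n = 10), and fibroblast 11.20 ± 1.08 and 10.13 ± 1.63.

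**Figure D2:**
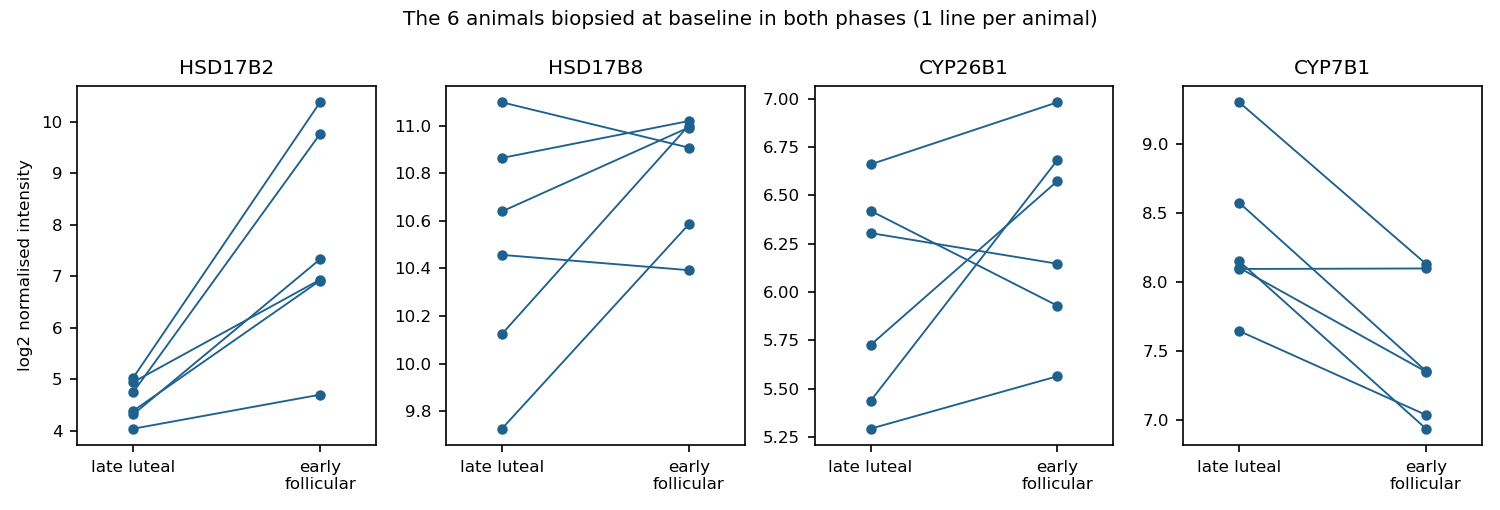
Log2 normalised intensity in the late luteal (left) and early follicular (right) baseline biopsies of the 6 animals that have both, 1 line per animal. HSD17B2 is lower in the late luteal biopsy of 6 of 6 animals and CYP7B1 is higher in 5 of 6, while HSD17B8 and CYP26B1 are each lower in 4 of 6.

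After DMPA, the HSD17B2 values at 2D2 had a low of 3.74, a median of 4.34 and a high of 5.13, against 4.04, 5.84 and 10.38 at baseline. All 9 were under 5.53, as were 7 of 8 at 1D4 and 13 of 28 at baseline, so the lowest values sit in the dimmest part of the scale and a fold change may understate the difference. HSD17B2 was kept by the filter through its follicular baseline, where it averaged 7.31 ± 1.90 (SD, n = 15), since its means at DMPA 2D2 (4.35), DMPA 1D4 (4.81) and in the luteal baseline (5.15) lie under 5.53. Being kept is therefore not independent of its falls. Against the pooled baseline the gene fell by 1.73 ± 0.66 at 2D2, or 3.33-fold (adjusted p = 0.0445), in a comparison that called 28.1% of all probe sets and 3 of the 4 enzymes, all lower. Animals had changes between -4.45 and 0.51, lower in 8 of 9, of which BB521 differed by only -0.00066 (exact two-sided sign-flip p = 0.0117). The only baseline biopsy of BB521 was late luteal. At 1D4 the difference was -1.40 ± 0.69 (adjusted p = 0.131), lower in 7 of 8 animals (exact two-sided sign-flip p = 0.0156). This comparison called 23.2% of all probe sets and 1 of the 4 enzymes. The 2D2 call is close to the threshold: it was lost with no filter on dim probe sets (adjusted p = 0.0607), with the animal left out of the model (0.0542) and in 7 of the 15 fits without 1 animal (BB0499, BB0540, BB405, BB770, BB981, PHQ1 and PPi2), where adjusted p lay between 0.0265 and 0.128. All 7 are among the 9 DMPA animals, and the LNG animals have no 2D2 biopsy. Within the DMPA arm the call was kept only without BB108 or BB521, whose 2D2 changes were 0.51 and -0.00066. The 1D4 and 2D2 comparisons share their baseline biopsies.

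Because the cycle moved HSD17B2, the phase of the baseline mattered for its size. Against the follicular baseline, HSD17B2 at 2D2 fell by 3.14 ± 0.62, or 8.84-fold (adjusted p = 1.9e-04), where 40.2% of all probe sets and 3 of the 4 enzymes were called. Against the luteal baseline the difference was -0.96 ± 0.63 (adjusted p = 0.330; 95% interval -2.22 to 0.31), where 10.6% of all probe sets and 1 of the 4 enzymes, CYP7B1, were called. All 5 late follicular values lay above all 9 values at 2D2, while the late luteal values overlapped with them. The lowest late follicular value, 6.30, averages a pair of arrays at 5.33 and 7.27, and the highest 2D2 value was 5.13. The share of all probe sets that separate so was not counted.

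With LNG, HSD17B2 went both ways. At the 5th time its values were 4.20, 4.34, 4.64, 6.04, 6.71 and 9.37, and the animals' changes from their own baseline were 1.67 and 1.66 in 2 animals and -0.41, -1.96, -2.37 and -2.62 in the other 4. The fitted difference was -0.60 ± 0.81 at the 5th time (adjusted p = 0.714) and -0.91 ± 0.81 at the 7th (adjusted p = 0.497), where the changes ran from -3.17 to 1.70. The intervals, -2.23 to 1.04 and -2.55 to 0.73, include a fall as large as that at DMPA 2D2. The difference between the DMPA 2D2 change and the LNG 5th change was -1.14 ± 1.04 (adjusted p = 0.781).

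HSD17B8, whose protein is a second dehydrogenase able to oxidise estradiol, fell after DMPA by a smaller and more even amount. At 2D2 its values had a low of 9.54, a median of 10.14 and a high of 11.04. At 1D4 they ran from 10.04 to 10.68 with a median of 10.23, while the 28 baseline values averaged 10.79 ± 0.22 (SD, n = 10) in the early follicular, 10.98 ± 0.25 (n = 5) in the late follicular, 10.38 ± 0.42 (n = 4) in the early luteal and 10.54 ± 0.42 (n = 9) in the late luteal phase. HSD17B8 fell by 0.47 ± 0.14 at 2D2, or 1.38-fold (adjusted p = 0.0106), and by 0.44 ± 0.14 at 1D4, or 1.36-fold (adjusted p = 0.0267). It was the one enzyme of the 4 that fell at both DMPA times. Changes ran from -1.40 to 0.03 at 2D2, lower in 8 of 9 animals (exact p = 0.0117), and from -0.89 to -0.11 at 1D4, lower in 8 of 8 (exact p = 0.00781, the smallest that 8 animals allow). The 2D2 call was lost without animal BB0499 (adjusted p = 0.0666), and the 1D4 call without BB0499, BB0540, BB981 or PHQ1 (adjusted p of HSD17B8 up to 0.0894). All of these are among the 8 DMPA animals with a 1D4 biopsy.

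In the LNG arm HSD17B8 was lower by a like amount, without passing. At the 5th time its 6 values were 8.97, 9.80, 9.94, 10.41, 10.76 and 11.05, and at the 7th time they were 9.96, 10.04, 10.08, 10.10, 10.31 and 10.57. The fitted differences were -0.51 ± 0.17 at the 5th (adjusted p = 0.0822) and -0.48 ± 0.17 at the 7th time (adjusted p = 0.0955). HSD17B8 was lower in 5 of 6 and 6 of 6 animals (exact two-sided sign-flip p = 0.0625 and 0.03125, the second the smallest that 6 animals allow). The fibroblast score changed by 1.53 ± 1.06 at the 5th (higher in 5 of 6 animals) and 1.60 ± 1.26 at the 7th time (6 of 6), and the GAPDH 3' minus 5' difference by 0.40 ± 0.47 (5 of 6) and 0.47 ± 0.32 (6 of 6). The endothelium score was higher in 5 of 6 and 6 of 6 animals. The difference between the DMPA 2D2 and LNG 5th changes was 0.04 ± 0.22, with an interval of -0.40 to 0.48. None of the 4 enzymes was called at either LNG time by limma, where 0% of all probe sets were called at the 5th time and 0.00632% at the 7th, and where 6828 and 7487 probe sets had an unadjusted p under 0.05. With animal BB4870 left out, HSD17B8 passed at the 5th time (-0.62, adjusted p = 0.0272), as it did with the 5 arrays labelled (A-) left out (-0.62, adjusted p = 0.0311). Against the follicular baseline HSD17B8 fell by 0.68 ± 0.16 at the 5th time (adjusted p = 0.00736), the single enzyme called in a comparison that called 19% of all probe sets. That HSD17B8 call was lost without animal BB4800 (-0.50, adjusted p = 0.0943) and with the GAPDH (-0.41), squamous (-0.33) or stroma covariate (-0.31). The squamous score was lower than baseline in 4 of 6 animals at the 5th time, ranging from 6.58 to 13.01. Against the luteal baseline the difference was -0.30 ± 0.17 (adjusted p = 0.501), and 0% of all probe sets were called, with 3870 at an unadjusted p under 0.05.

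None of the 4 enzymes passed by labelled dose. The slope of HSD17B8 at DMPA 2D2 was -0.33 ± 0.16 per labelled dose unit (adjusted p = 0.540), in a comparison that called 0.00949% of all probe sets and none of the 4 enzymes in limma, with 2902 probe sets at an unadjusted p under 0.05. The 3 animals at dose 0.5 changed by -0.40, -0.00088 and 0.03, those at 1.5 by -0.89, -0.37 and -0.19, and those at 2.5 by -1.40, -0.70 and -0.23, so the doses overlap. Between the LNG levels, the High animals changed by -0.18, -0.15 and 0.04 at the 5th time and the Low animals by -1.32, -1.08 and -0.50, so the levels did not overlap. With 3 animals per level and no count over all probe sets, that separation is descriptive. Each High animal had a late luteal baseline biopsy and no Low animal did, so level and baseline phase cannot be told apart. The High change of HSD17B8 minus its Low change was 0.85 ± 0.31 (adjusted p = 0.208), where 0% of all probe sets were called by limma and 4571 had an unadjusted p under 0.05. It passed with the animal as a random block (1.05, adjusted p = 0.0416) and with the animal left out of the model (1.17, adjusted p = 0.0394). At the 7th time the High changes of -0.92, -0.38 and -0.25 and the Low changes of -0.78, -0.39 and -0.33 overlapped. The other 3 enzymes had dose slopes of 0.02 ± 0.81 (HSD17B2), -0.29 ± 0.30 (CYP26B1) and -0.19 ± 0.21 (CYP7B1).

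**Figure D3:**
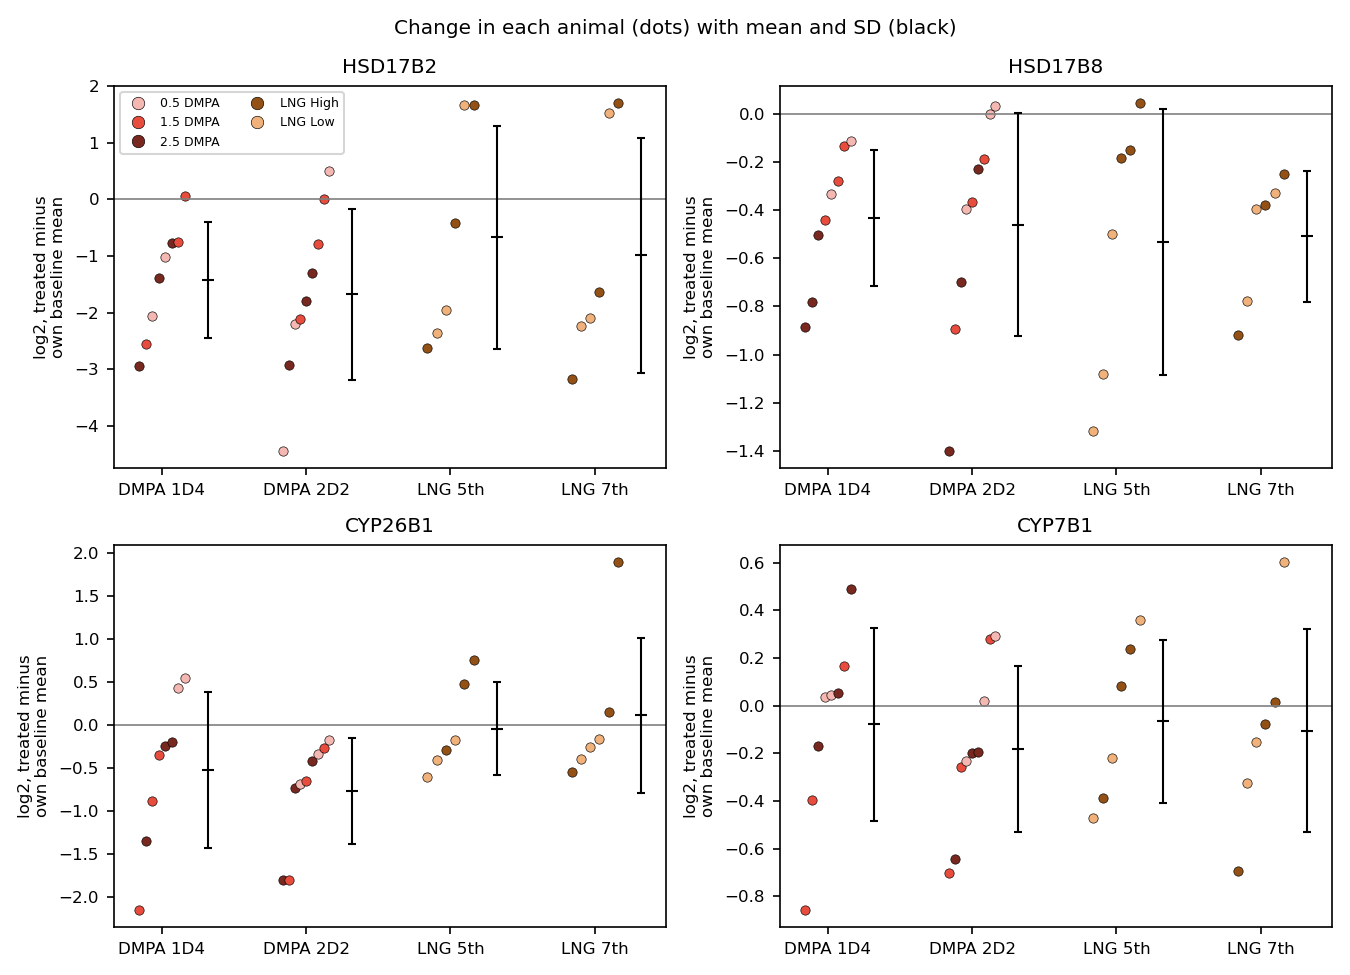
Change of each animal from its own mean baseline (log2) at the 4 treated times, with colours for the labelled dose or level and the mean and SD in black. CYP26B1 is lower in 9 of 9 animals at DMPA 2D2, HSD17B8 is lower in 8 of 8 at DMPA 1D4 and 6 of 6 at LNG 7th, and HSD17B2 at the LNG times splits into 2 animals above and 4 below 0.

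CYP26B1, the retinoic acid hydroxylase, fell after DMPA at the later time. Its values at 2D2 had a low of 5.02, a median of 5.63 and a high of 5.80, the narrowest range of any group for this gene. The early follicular values ran from 5.56 to 8.71 with a median of 6.43, and the late follicular values were 5.75, 5.76, 5.89, 6.43 and 6.72. The early luteal values were 5.22, 5.78, 5.82 and 6.44, and the late luteal values ran from 5.29 to 6.66 with a median of 5.90. The groups overlap. CYP26B1 fell by 0.78 ± 0.25 at 2D2, or 1.71-fold (adjusted p = 0.0178), and was lower in 9 of 9 animals, with changes of -1.81 to -0.18 (exact p = 0.00391, the smallest that 9 animals allow). At 1D4 the difference was -0.52 ± 0.26 (adjusted p = 0.134), with 6 of 8 animals lower and changes from -2.15 to 0.55. The 2D2 call was lost without animal BB0540 (-0.64, adjusted p = 0.0761), whose 2D2 value was the lowest of the group. Against the follicular baseline CYP26B1 fell by 0.93 ± 0.27 at 2D2 (adjusted p = 0.00727), and against the luteal baseline the difference was -0.45 ± 0.28 (adjusted p = 0.299).

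CYP26B1 did not pass in the LNG arm or across the cycle. At the 5th time its values were 5.36, 5.49, 5.86, 5.93, 6.19 and 6.29, and the fitted difference from baseline was -0.02 ± 0.30 (adjusted p = 0.978; interval -0.63 to 0.59). At the 7th time they were 4.88, 5.58, 5.64, 5.88, 6.38 and 7.71, and the difference was 0.14 ± 0.30 (adjusted p = 0.805). The DMPA 2D2 change minus the LNG 5th change was -0.76 ± 0.39 (adjusted p = 0.599; interval -1.55 to 0.03), in a comparison where limma called 0% of all probe sets and 2688 had an unadjusted p under 0.05. The fall after DMPA is therefore not shown to differ from the change in the LNG arm. Luteal minus follicular was -0.48 ± 0.24 for CYP26B1 (adjusted p = 0.248) and -0.37 ± 0.13 for HSD17B8 (adjusted p = 0.0955).

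CYP7B1, the oxysterol and steroid 7α-hydroxylase, rose in the luteal phases and did not pass at any treated time against the pooled baseline. The late luteal values ran from 7.64 to 9.30 with a median of 8.10, and the early luteal values were 7.62, 7.79, 7.81 and 9.13. The late follicular values were 7.01, 7.04, 7.06, 7.26 and 7.58, and the early follicular values ran from 6.93 to 8.13 with a median of 7.43. All luteal values lay above all late follicular values, but only by 7.62 against 7.58, while luteal and early follicular values overlapped. The late follicular 7.26 averages a pair of arrays at 7.77 and 6.74, and 7.77 alone lies above the lowest luteal value. How many of all probe sets separate in this way was not counted. CYP7B1 was 0.77 ± 0.13 higher in the luteal than in the follicular phases, or 1.70-fold (adjusted p = 0.00514), and its unadjusted p ranked 2 among all kept probe sets, counted from the smallest. Late luteal minus early follicular was 0.71 ± 0.14 (adjusted p = 0.0070). Among the 6 animals with both phases, 5 were higher in the late luteal biopsy, by up to 1.22, and 1 differed by -0.0037 (mean 0.83 ± 0.48, SD; exact p = 0.0625). The luteal call was lost without animal BB4800 (0.78, adjusted p = 0.0725) and kept in the other 14 fits without 1 animal. With the animal left out of the model, CYP7B1 missed the threshold in the luteal comparison (0.86, adjusted p = 0.0681) and in the late luteal against early follicular comparison (0.81, adjusted p = 0.109).

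None of the 4 enzymes was called between neighbouring phases. Only animal BB4800 had both late follicular and early luteal biopsies, and only PHQ1 had both follicular phases. No animal had both luteal phases. With so few animals in both phases, the missing calls do not show that the phases are alike. Early luteal minus late follicular was 0.83 ± 0.22 for CYP7B1 (adjusted p = 0.726) and -2.02 ± 0.97 for HSD17B2 (adjusted p = 0.876). Late follicular minus early follicular was 1.18 ± 0.82 for HSD17B2, and late luteal minus early luteal was -1.51 ± 0.90. These 3 comparisons called 0% of all probe sets in limma, with 1753, 1315 and 3548 at an unadjusted p under 0.05.

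At DMPA 2D2, CYP7B1 had a low of 7.12, a median of 7.53 and a high of 8.39, and at 1D4 a low of 7.37, a median of 7.74 and a high of 8.68. Differences from the pooled baseline were -0.17 ± 0.17 at 2D2 (adjusted p = 0.488; interval -0.51 to 0.18) and -0.06 ± 0.18 at 1D4 (adjusted p = 0.818). Against the luteal baseline CYP7B1 fell by 0.55 ± 0.14 at 2D2, or 1.47-fold (adjusted p = 0.0110), and against the follicular baseline the difference was 0.22 ± 0.14 (adjusted p = 0.218). The call against the luteal baseline was lost without animal BB405 (-0.46, adjusted p = 0.0572), with the animal as a random block (-0.52, adjusted p = 0.0548) or left out of the model (-0.49, adjusted p = 0.261), and for CYP7B1 with the GAPDH (-0.41), actin (-0.50) or squamous covariate (-0.23). LNG values at the 5th time were 7.09, 7.20, 7.42, 7.62, 8.03 and 8.33, and at the 7th time 7.09, 7.24, 7.27, 7.36, 7.86 and 8.64. The LNG 5th difference was -0.53 ± 0.17 against the luteal baseline (adjusted p = 0.183) and 0.24 ± 0.16 against the follicular baseline (adjusted p = 0.300). The luteal and follicular comparisons share biopsies.

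In the order of group means, CYP7B1 ran late luteal (8.32 ± 0.55, SD, n = 9), early luteal (8.09 ± 0.70, n = 4), DMPA 1D4 (7.88 ± 0.43, n = 8), DMPA 2D2 (7.73 ± 0.49, n = 9), LNG 5th (7.62 ± 0.48, n = 6), LNG 7th (7.58 ± 0.58, n = 6), early follicular (7.51 ± 0.43, n = 10) and late follicular (7.19 ± 0.24, n = 5). All 4 treated groups fell between the luteal and the follicular groups. For HSD17B8 both follicular groups came first, then the luteal groups, and then the 4 treated groups, between 10.15 ± 0.75 at LNG 5th and 10.28 ± 0.23 at DMPA 1D4. For CYP26B1 the early follicular group came first (6.56 ± 0.87) and DMPA 2D2 last (5.59 ± 0.25). No neighbouring groups of any of the 4 enzymes differed by more than the larger of their SDs. Time within an arm gave no calls either. DMPA 2D2 minus 1D4 ran from -0.33 ± 0.78 (HSD17B2) to -0.03 ± 0.16 (HSD17B8), and LNG 7th minus 5th ran from -0.32 ± 0.92 (HSD17B2) to 0.16 ± 0.34 (CYP26B1). Limma called 0% of all probe sets in both comparisons, and 1655 and 946 had an unadjusted p under 0.05.

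**Figure D4:**
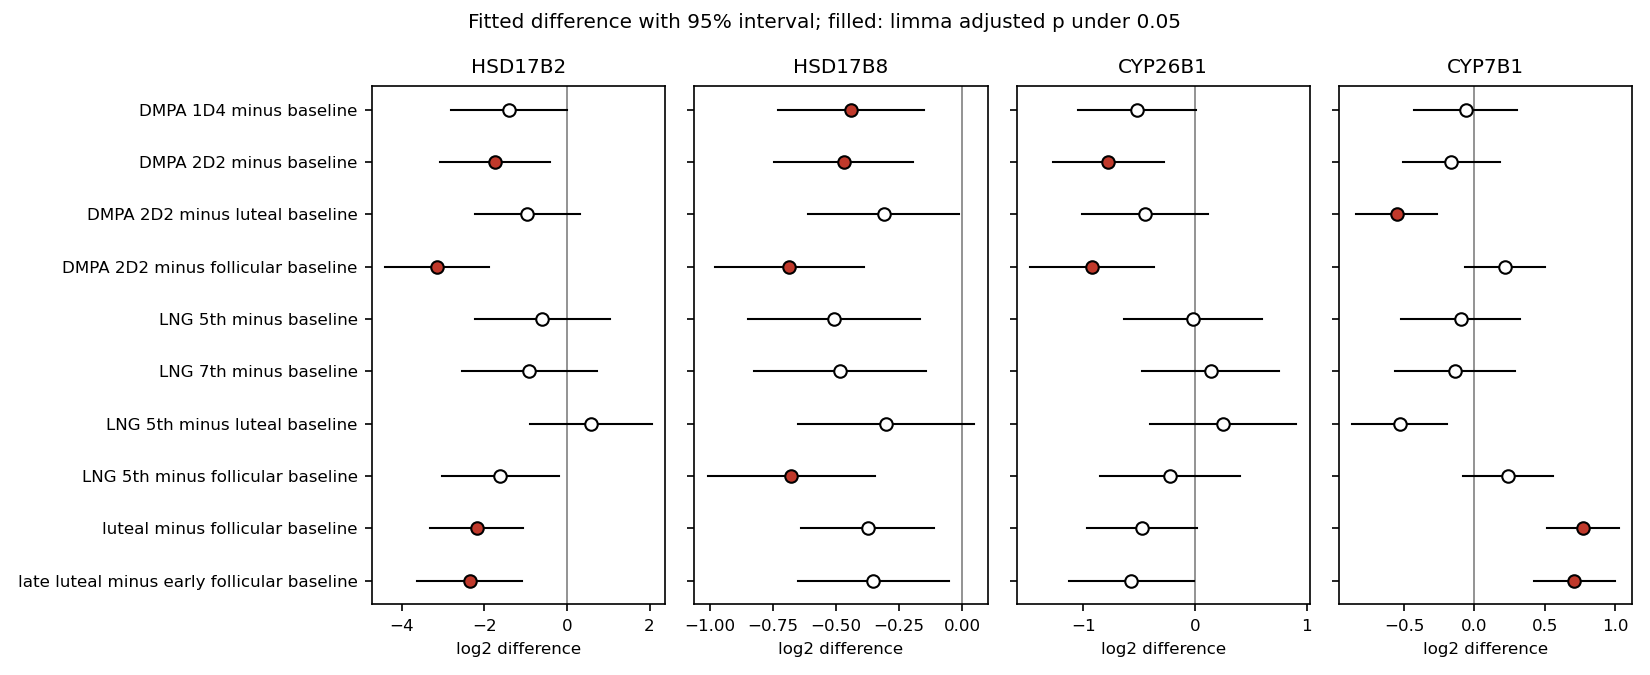
Fitted log2 differences of the 4 enzymes (dots) with 95% intervals in 10 comparisons, filled where the limma adjusted p was under 0.05. Calls are to the left of 0 for HSD17B2, HSD17B8 and CYP26B1, and CYP7B1 is called above 0 in both luteal comparisons and below 0 for DMPA 2D2 against the luteal baseline.

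Makeup and RNA quality were then put into the model as covariates. With the squamous score as a covariate, the 2D2 difference became -1.20 ± 0.92 for HSD17B2, -0.02 ± 0.16 for HSD17B8 and -0.24 ± 0.32 for CYP26B1, and none passed (adjusted p = 1.00 for each). With the GAPDH 3' minus 5' difference it became -0.92 ± 0.83 for HSD17B2, -0.03 ± 0.14 for HSD17B8 and -0.24 ± 0.29 for CYP26B1 (adjusted p = 0.780, 0.973 and 0.845). In both of these fits 0 of 31624 probe sets were called at 2D2, so the loss is not particular to the 3 enzymes. With the actin 3' minus 5' difference none of the 3 passed and 1469 probe sets were called. With a stroma score over fibroblast and smooth muscle genes all 3 passed, at -1.65, -0.45 and -0.78. At 1D4 HSD17B8 was -0.26 with the GAPDH, -0.09 with the squamous and -0.20 with the stroma covariate, and did not pass. Against the follicular baseline at 2D2, HSD17B2 kept its size with the GAPDH (-2.92, adjusted p = 0.104) and squamous covariates (-3.21, adjusted p = 0.340) but did not pass, while HSD17B8 was -0.23 and -0.19 and CYP26B1 -0.40 and -0.30. CYP7B1 in the luteal comparison stayed between 0.75 and 0.82 with each of the 4 covariates (adjusted p between 0.00151 and 0.00835). HSD17B2 in the luteal comparison stayed between -2.20 and -1.82, passing with the squamous score (adjusted p = 0.0166) and not with actin (0.0505), stroma (0.0796) or GAPDH (0.0991).

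**Figure D5:**
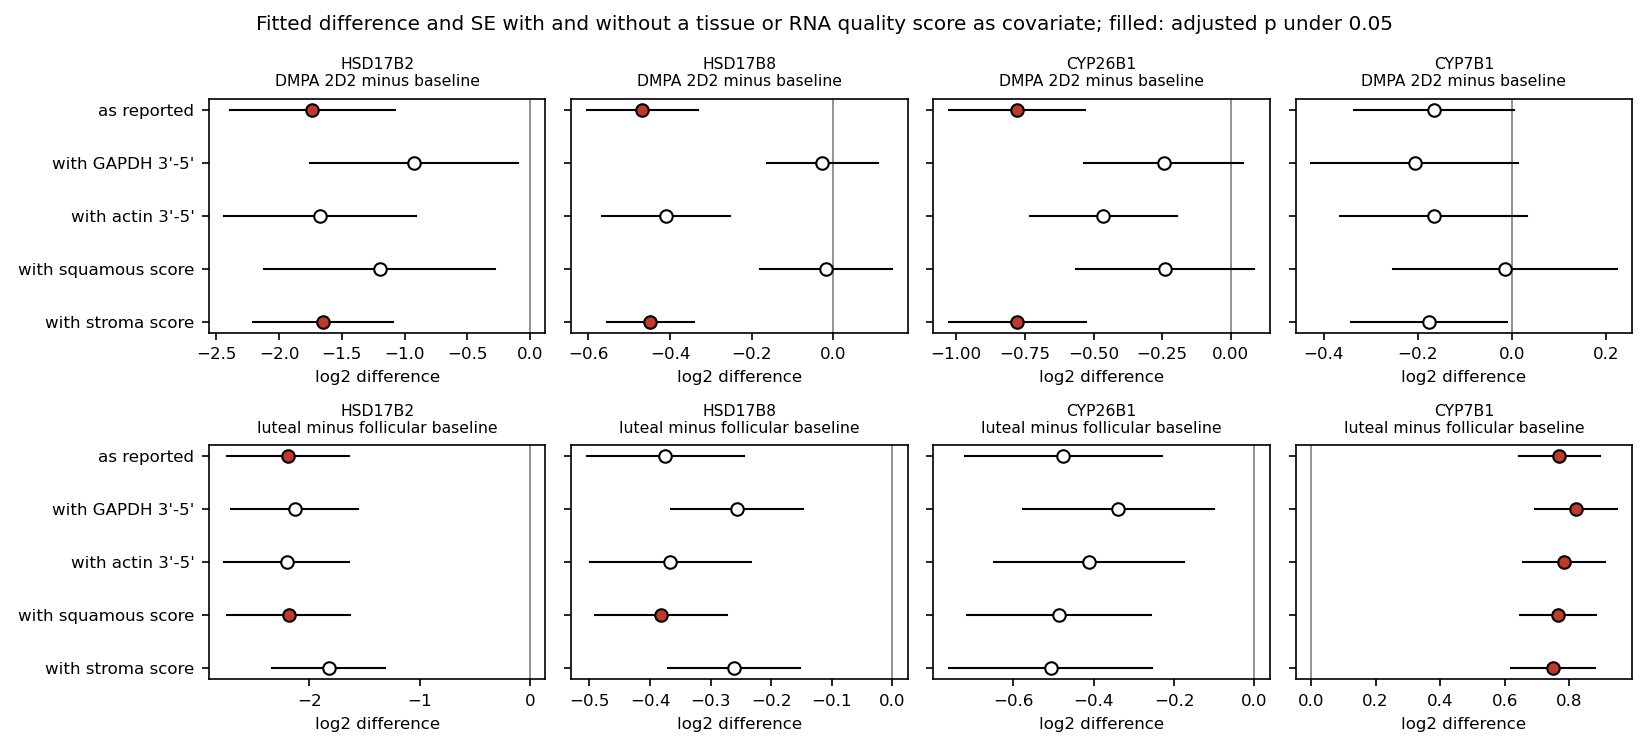
Fitted log2 differences (dots) with SE for DMPA 2D2 minus baseline (top) and luteal minus follicular baseline (bottom), as reported and with an RNA quality or tissue score as a covariate, filled where the adjusted p was under 0.05. HSD17B8 at DMPA 2D2 moves to -0.03 with the GAPDH score and -0.02 with the squamous score, while CYP7B1 in the luteal phases stays at 0.75 or more.

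The other genes of these pathways were taken from 8 lists of steroid, retinoid and oxysterol genes and of mitochondrial fatty acid synthesis, in which 54 of 109 genes besides the 4 enzymes were measured. At DMPA 2D2, 6 rose and 8 fell, and their median difference was -0.01. Over all 11199 named genes, 17.2% rose and 14.1% fell, with a median of 0.05. At 1D4, 4 rose and 7 fell, while 25.8% of all named genes were called in either direction. None passed at LNG 5th, where 0% of the named genes did, and 2 rose and 0 fell in the luteal phases, where 1.96% of named genes were called. These shares are near the background.

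Among steroid genes, 5 of 12 listed 17β-hydroxysteroid dehydrogenases were measured, and at 2D2 the falls were those of HSD17B2 and HSD17B8. HSD17B1, which reduces estrone to estradiol, differed by -0.18 ± 0.08 (adjusted p = 0.0934), and HSD17B4, an oxidising member of the family in peroxisomes, by -0.04 ± 0.07 (adjusted p = 0.724). HSD17B7, which acts in estradiol and cholesterol synthesis, fell at 1D4 by 0.58 ± 0.17 (adjusted p = 0.0156). At 2D2 the brightest of its 3 probe sets did not pass (-0.38, adjusted p = 0.0676), and the other two did (-0.51 each, adjusted p = 0.0076 and 0.0212). The steroid receptor genes ESR1 (-0.24 ± 0.15) and NR3C1 (0.17 ± 0.11) did not pass at 2D2, although 1 of 3 NR3C1 probe sets did (0.27, adjusted p = 0.0323). At 1D4 the same NR3C1 probe set passed (0.35, adjusted p = 0.0163). PGR, the progesterone receptor, averaged 8.29 ± 0.96 at 2D2 (SD, n = 9) and 9.21 ± 0.78 at baseline (n = 28) and fell by 0.92 ± 0.28 (adjusted p = 0.0127). At 1D4 PGR did not pass (-0.17, adjusted p = 0.688). The androgen receptor gene was not analysed here. None of 8 measured genes for other steroid synthesis and inactivation passed at either DMPA time.

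Retinoid genes moved both ways beside CYP26B1. DHRS3, which reduces retinaldehyde back to retinol, averaged 11.82 ± 0.67 at 2D2 (SD, n = 9) and 10.44 ± 0.80 at baseline (n = 28). DHRS3 rose by 1.40 ± 0.26 at 2D2 (adjusted p = 3.2e-04) and by 1.16 ± 0.27 at 1D4 (adjusted p = 0.0057). DHRS9 and ADH7, which can oxidise retinol towards retinoic acid, fell by 2.00 ± 0.50 and 0.82 ± 0.22 at 2D2 and by 1.80 ± 0.52 and 1.01 ± 0.24 at 1D4. In the retinoid metabolism list 3 of 13 measured genes rose and 3 fell at 2D2, with CYP26B1 among those that fell. The other rises were of STRA6, a retinol uptake receptor (0.76 ± 0.25), and DGAT1 (0.28 ± 0.11), both outside the rule for named genes.

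Of the 9 measured retinoid receptors and targets, RARB, a receptor that retinoic acid itself induces, rose by 1.34 ± 0.40 at 2D2 (adjusted p = 0.0117) and RARRES1, a retinoic acid-induced gene, by 1.13 ± 0.42 (adjusted p = 0.0397). RARG and RXRA, retinoid receptors of epithelia, fell by 0.43 ± 0.10 and 0.52 ± 0.12. At 1D4, RARRES1 and TGM2, a retinoic acid-induced transglutaminase gene, rose by 1.55 ± 0.44 and 0.88 ± 0.28, and RARG and RXRA fell by 0.38 ± 0.10 and 0.55 ± 0.13. Neither RARB probe set passed at 1D4 (0.92 and 1.05, adjusted p = 0.102 and 0.0617), and TGM2 did not pass at 2D2 (0.05, adjusted p = 0.907). In the luteal phases RARB rose by 1.36 ± 0.32 (adjusted p = 0.0302) and ALDH1A3, which makes retinoic acid from retinaldehyde, by 1.73 ± 0.43 (adjusted p = 0.0354). RARB averaged 9.92 ± 0.54 in the early luteal (SD, n = 4) and 9.49 ± 0.49 in the late luteal phase (n = 9), against 8.03 ± 1.25 in the early follicular (n = 10) and 8.57 ± 0.45 in the late follicular phase (n = 5). Both RARB probe sets rose in the luteal phases and at 2D2.

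Among sterol genes, DHCR7 and EBP, which act late in cholesterol synthesis, fell by 1.52 ± 0.31 and 0.80 ± 0.19 at 2D2 and by 1.46 ± 0.33 and 0.74 ± 0.20 at 1D4. DHCR7 averaged 6.32 ± 1.07 at 2D2 (SD, n = 9) and 7.83 ± 0.82 at baseline (n = 28). MYLIP, a target of the oxysterol receptors LXR, rose by 0.73 ± 0.19 at 2D2 and INSIG1, a sterol-regulated brake on cholesterol synthesis, fell by 0.46 ± 0.17. Of the 3 MYLIP probe sets 1 did not pass at 2D2 (0.35, adjusted p = 0.0747), while at 1D4 only 1 passed (0.53, adjusted p = 0.0197). The second INSIG1 probe set did not pass at 2D2 (-0.23, adjusted p = 0.408), and neither passed at 1D4 (-0.40 and -0.49, adjusted p = 0.0893 and 0.0851). CYP46A1, a cholesterol hydroxylase known from brain, rose at 1D4 by 0.35 ± 0.12 (adjusted p = 0.0375). With the squamous or the GAPDH covariate, none of the 54 genes passed at 2D2. At 1D4 none of the 54 passed with the squamous score, where 0 of 31624 probe sets were called, or with the stroma score, where 289 were, against 7334 as reported, and 5 passed with the GAPDH covariate.

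Some of these pathway calls were lost when 1 animal was left out, often for any of several animals. The differences kept their sign in these fits, as for RARB in the luteal phases (1.09 to 1.53). At 2D2, RARRES1 was lost without BB0499, BB0540, BB405, BB521 or BB981 (adjusted p up to 0.192), INSIG1 without BB0499, BB405, BB521, BB981 or PHQ1 (up to 0.108), PGR without BB0540, BB405 or PHQ1 (up to 0.0627) and ADH7 without BB981 (0.0570). At 1D4, CYP46A1 was lost without BB0499, BB405, BB981, PHQ1 or PPi2 (up to 0.136), TGM2 without BB0499, BB521, BB981 or PHQ1 (up to 0.0927), HSD17B7 without BB0499, BB0540 or BB981 (up to 0.0670), DHRS9 without BB0499 or BB981 (up to 0.0799) and RARRES1 without BB981 (0.0610). In the luteal phases ALDH1A3 and RARB were lost without BB173, BB269, BB4800, BB537, BB967, BB981 or PPi2 (up to 0.117 and 0.113). At both DMPA times DHRS3, DHCR7, EBP, RARG and RXRA passed in all 15 of these fits, of which 9 leave out a DMPA animal.

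The genes whose values ran most like those of each enzyme were found by correlation over the 57 samples after each animal's mean was subtracted. These samples share animals, treatment and tissue makeup, so the coefficients are descriptive. HSD17B2 ran most closely with RORA, an orphan nuclear receptor gene (r = 0.89), LGALS12 (0.84), FCHSD1 (0.83), BPIFC (0.82) and ULK1, an autophagy kinase gene (0.82). RORA fell by 0.87 at 2D2 (adjusted p = 0.0157), FCHSD1 by 1.06 (adjusted p = 0.0031) and BPIFC by 1.91 (adjusted p = 0.0053). LGALS12 (-0.30, adjusted p = 0.0589) and ULK1 (-0.24, adjusted p = 0.279) did not pass at 2D2. HSD17B8 ran with CAMSAP3, a microtubule-binding protein gene of epithelia, PLGRKT, SHTN1 and CCDC12 (r = 0.92 each) and ORMDL2, a regulator of sphingolipid synthesis (0.91). For CYP26B1 the closest were MAP1B, TEKT4, DESI1, NOTUM and RANGAP1 (r = 0.70 each), and for CYP7B1 they were TNIP1 (0.64), IL34 (0.57), DHRS7 (0.56), SNCAIP (0.55) and AGFG2 (0.54). Between the enzymes, r was 0.51 for HSD17B2 with HSD17B8, 0.39 for HSD17B8 with CYP26B1, 0.35 for HSD17B2 with CYP26B1, -0.42 for HSD17B2 with CYP7B1, -0.23 for CYP26B1 with CYP7B1 and -0.06 for HSD17B8 with CYP7B1.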

How the data were processed

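The deposited table holds log2 values, 1 column per array, which were used as deposited. Per the submitters' processing notes affy and Partek were used; the background correction, normalization and summarization are not given in the sources used here. Array medians lie between 6.07 and 6.25. The 58 arrays gave 57 samples, since 1 duplicate array was averaged with the array it repeats. The number of arrays limits the precision. Of 52865 probe sets, 158 controls were left out, as were probe sets with a mean under the 40th percentile (5.53), and 31624 were tested.

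limma 3.58.1 in R 4.3.3 (statmod 1.5.0 for the random block) fitted linear models with the animal, given by the labels, as a fixed block. P-values were adjusted by Benjamini-Hochberg over all kept probe sets. Every adjusted p is from limma. The baseline phases were pooled, or kept apart and averaged with equal weights for luteal and follicular comparisons. Changes per animal from its own baseline were also tested by exact two-sided sign-flip permutation, 16 tests in all. The late luteal minus early follicular pairs of each enzyme were tested in the same way. Exact p-values are printed without adjustment. A gene with several probe sets is represented by the brightest. Pathway genes are named where they passed, up to 4 per list and comparison by p, with ESR1, PGR and NR3C1 in any case. The members and the lists were chosen with earlier results of these data known. Alternatives tried were the treatment of the animal term, the filter, the scaling, array weights, the variance model, covariates for RNA quality and tissue makeup, and leaving out arrays or animals.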

Additional observations from a re-analysis of the deposited data

Results flagged for a closer look

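Of 48 groups of 4 to 10 values (levels and changes from baseline), 5 held a value that stood far from the rest, where chance flags about 1 in 20 groups. CYP26B1 at DMPA 2D2 had its lowest value in animal BB0540, 5.016, with the next at 5.4376. In the early follicular baseline CYP26B1 had its highest value in animal BB981, 8.7062, with the next at 6.982. CYP26B1 also had 1 large change at LNG 7th, 1.894 in animal BB269, with the next at 0.1514. The highest HSD17B2 value of the late luteal baseline, 8.2117 in animal BB770, was followed by 5.0287. CYP7B1 in the early luteal baseline reached 9.1326 in animal BB405, with the next at 7.8093.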

How the results depend on the processing

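As reported, 3 enzymes were called at DMPA 2D2, 1 at 1D4, 0 at LNG 5th, 0 at LNG 7th and 2 in the luteal phases. With no replicate block for the animal, 0 were called at 1D4 and 0 in the luteal phases, where HSD17B2 (adjusted p = 0.0740) and CYP7B1 (0.0681) missed the threshold, and HSD17B2 missed it at 2D2 (0.0542). With the filter at the 60th percentile 2 enzymes were tested, and 1 was called at 2D2 and 1 in the luteal phases, since this filter removed HSD17B2 and CYP26B1. Array weights gave 1 call at LNG 7th (HSD17B8, adjusted p = 0.0209). The GAPDH covariate gave 0 calls at 2D2, 0 at 1D4 and 1 in the luteal phases, the actin covariate 0 at 2D2 and 1 in the luteal phases, the stroma score 0 at 1D4 and 1 in the luteal phases, and the squamous score 0 at 2D2 and 0 at 1D4. Baseline phases as separate levels gave 2 calls at 1D4 (HSD17B2 added, -1.69), and leaving out the arrays labelled (A-) gave 1 at LNG 5th. Leaving out 1 animal at a time gave 1 to 3 calls at 2D2, 0 to 1 at 1D4, 0 to 1 at LNG 5th, 0 at LNG 7th and 0 to 3 in the luteal phases. With no filter HSD17B2 missed the threshold at 2D2 (adjusted p = 0.0607). With the squamous score, RARRES1 was -0.24 and EBP 0.091 at 2D2, both with the sign turned and neither called. The cause of these shifts was not tested unless stated. Over all values and alternatives, 3421 kept their side of the threshold and direction, or were counts that stayed close. Another 185 lost a call and 14 gained one. In 2 the sign turned for a value called in either fit. The remaining 196 were counts that moved, or values whose sign turned with no call in either fit. Dim signal limits HSD17B2 and CYP26B1.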
